A study of Homo sapiens with 48 samples.

Results

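Transcript levels of 45 genes that act in the G2 phase and in mitosis were followed in 48 RNA-seq libraries of 2 lymphoma lines given 3 compounds. The genes were picked by name: cyclins, mitotic kinases, kinetochore and checkpoint proteins, spindle motors, regulators of anaphase and of cytokinesis, and factors of mitotic transcription and chromosome structure. The list was chosen with earlier results of these data known, so its shares of genes called, set beside those of all genes, are descriptions only. All 45 were among the 25066 genes of the count table and among the 13881 with enough reads to be tested. TMD8 and HBL1 are lines of diffuse large B cell lymphoma of the activated B cell-like type, whose growth depends on signalling from the B cell receptor, and all libraries, the vehicle libraries included, came from cells engineered to carry Cas9. The treatments were the vehicle DMSO, the oligosaccharyltransferase inhibitor NGI-1 at 5 µM, which blocks the transfer of N-glycans to proteins in the endoplasmic reticulum, the inhibitor of Bruton's tyrosine kinase acalabrutinib at 50 nM, and the PI3K inhibitor copanlisib at 20 nM. Each line received each treatment for 3, 6 or 24 h, which gave 24 groups of 2 libraries. Each compound was used at a single dose. Nothing in the labels says that the replicates were separate cultures, and the p-values therefore rest on a spread between samples that may be technical.

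Cells make most of these transcripts as they pass from S phase into G2, and remove many of them after division. Cyclins A2 and B1 activate CDK1, whose activation by CDC25 phosphatases starts mitosis, PLK1 and the Aurora kinases build the spindle, and the spindle checkpoint holds the anaphase-promoting complex until all chromosomes are attached. Many of the promoters carry a cell cycle genes homology region (CHR), the element through which the MuvB protein complex represses them in resting cells and, with B-MYB and FOXM1, activates them in G2. In RNA from a whole culture, fewer cells in G2 and mitosis and less of a transcript per cell cannot be told apart.

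The libraries held 7165377 to 11999050 reads in genes, and every one of the 45 genes had at least 28 reads in every library. Levels are given in CPM, the reads of a gene relative to the library's total after scaling by the TMM method, with the 2 replicates of a group in order. Changes are log2 fold changes ± SE from edgeR's quasi-likelihood F test, with p-values adjusted by the Benjamini-Hochberg method over all 13881 genes, and a gene was called where the adjusted p was under 0.05. Rose and fell, or higher and lower, refer to the vehicle of the same line and time unless a time course is named. Each library was also left out in turn. A count said to become another is of all of the 45 genes called then, which need not be the same genes. A call is said to be lost without a library where the adjusted p then reached 0.05 or more. Losses are spelled out for some genes only, so a call given without a loss was not always kept. The 3 compounds were compared with the same vehicle libraries of each line and time, so their results share those libraries. Both lines expressed all 8 B cell markers examined, at a summed level of 4230 to 6050 CPM in TMD8 and 3120 to 4500 CPM in HBL1. Markers of T and NK cells summed to 0.661 to 6.67 CPM in TMD8 (CD3D at 0 in all its libraries) and 0.0963 to 0.841 CPM in HBL1 (CD2 and KLRD1 at 0). Those of myeloid cells stayed at or under 2.53 CPM in TMD8 (S100A9 at 0) and 3.57 CPM in HBL1 (S100A8 and S100A9 at 0). Stromal and epithelial markers summed to 8.22 to 18.7 CPM in TMD8 (KRT18 at 0) and 12.9 to 24.9 CPM in HBL1. Enough reads to be tested were held by 2 of 8 T and NK cell, 2 of 7 myeloid and 5 of 6 stromal and epithelial markers.

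The promoters of the genes were examined first. RefSeq promoters of GRCh38.p14, from 250 bases before to 50 bases after each start, were matched for 38 of the 45 genes, 5 of them with more than 1 promoter, which gave 47 promoters. AURKA, BUB3, TTK, TPX2, FOXM1, BIRC5 and UBE2C had no matched promoter. The CHR was searched as TTTGAA or TTCGAA and the element of NF-Y as CCAAT, each on both strands. Other forms of the CHR were not searched, so every share of promoters with a CHR is of these forms only. A CHR was found in 31 of the 47 promoters (66%), against 16.4% of all 35116 promoters of this length. CCAAT was found in 34 (72.3%), against 34.6% of all, and both elements in 25 (53.2%), against 6.38%. Within 50 bases of the start site a CHR began in 25 promoters (53.2%), against 5.01% of all, a window set after the positions were seen. Of 55 promoters of the 57 other genes of mitosis described last, 69.1% held a CHR, 65.5% CCAAT and 54.5% both, and in 52.7% a CHR began within 50 bases of the start site, so these shares do not set the 45 genes apart from them. In 41 promoters of genes of the G1/S transition and DNA replication, 7.32% held a CHR and 65.9% held CCAAT. A match describes the letters of the window and is not evidence of binding.

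The promoters of 5 genes show the range. CCNB2 (chr15:59104896-59105195, plus strand), PLK1 (chr16:23678639-23678938, plus strand) and HMMR (chr5:163460382-163460681, plus strand) were called higher early and lower late under copanlisib in TMD8. They hold a CHR beginning 29 bases (CCNB2 and PLK1) or 28 and 22 bases (HMMR) before the start site, with CCAAT elements further upstream. KIF20A (chr5:138178862-138179161, plus strand), which was called higher early under every compound in TMD8, holds CCAAT at 94 and 67 bases before the start. It holds no match in this window to the CHR forms that were searched. CKAP2 (chr13:52455738-52456037, plus strand), which was called lower at 24 h under no compound, holds no match to either element. CDC25B and CDC25C were called lower at 24 h under no compound either. Each has a promoter with a CHR, beginning 38 (CDC25B) or 30 bases (CDC25C) before the start. CCNA2, called lower in all 6 comparisons at 24 h, has no match to the CHR forms searched. KIF2C and CENPE, like CKAP2, hold no match to either element, and were called lower in 5 and 1 of these comparisons. A link between matches and response was not tested. Capitals mark the CHR and CCAAT matches on either strand.
CCNB2: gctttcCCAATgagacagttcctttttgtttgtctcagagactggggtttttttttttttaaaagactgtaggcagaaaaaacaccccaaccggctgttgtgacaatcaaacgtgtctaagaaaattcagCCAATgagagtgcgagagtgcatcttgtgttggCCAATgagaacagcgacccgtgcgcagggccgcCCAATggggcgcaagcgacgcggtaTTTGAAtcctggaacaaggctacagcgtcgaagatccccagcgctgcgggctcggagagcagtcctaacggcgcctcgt
PLK1: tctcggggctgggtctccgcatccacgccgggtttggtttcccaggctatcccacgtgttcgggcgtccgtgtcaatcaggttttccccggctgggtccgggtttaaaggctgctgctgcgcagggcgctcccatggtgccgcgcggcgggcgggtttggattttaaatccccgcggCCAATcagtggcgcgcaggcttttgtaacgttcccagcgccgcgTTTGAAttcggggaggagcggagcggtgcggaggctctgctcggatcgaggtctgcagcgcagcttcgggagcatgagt
HMMR: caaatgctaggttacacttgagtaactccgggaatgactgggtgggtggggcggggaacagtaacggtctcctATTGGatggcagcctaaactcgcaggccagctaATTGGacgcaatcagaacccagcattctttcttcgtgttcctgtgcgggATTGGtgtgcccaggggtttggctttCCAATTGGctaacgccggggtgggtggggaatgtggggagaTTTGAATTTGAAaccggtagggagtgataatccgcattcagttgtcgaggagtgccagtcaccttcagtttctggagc
KIF20A: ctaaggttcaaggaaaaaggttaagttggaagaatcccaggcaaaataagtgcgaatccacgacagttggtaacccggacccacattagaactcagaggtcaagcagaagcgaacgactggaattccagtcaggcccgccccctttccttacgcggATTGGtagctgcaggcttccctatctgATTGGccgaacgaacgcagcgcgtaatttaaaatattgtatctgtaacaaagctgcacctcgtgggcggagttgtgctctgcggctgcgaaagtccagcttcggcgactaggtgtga
CKAP2: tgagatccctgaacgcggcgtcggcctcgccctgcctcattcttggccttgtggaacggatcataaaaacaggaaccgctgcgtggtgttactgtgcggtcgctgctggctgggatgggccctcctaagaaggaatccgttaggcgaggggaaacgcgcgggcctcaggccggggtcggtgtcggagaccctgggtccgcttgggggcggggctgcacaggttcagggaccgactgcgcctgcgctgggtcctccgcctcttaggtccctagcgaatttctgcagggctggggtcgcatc

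The vehicle cells themselves changed with time in culture, and this is the background of every later comparison. The mean log2 CPM over the 45 genes in TMD8 given DMSO was 6.86 and 6.90 at 3 h, 6.59 and 6.72 at 6 h, and 7.24 and 7.19 at 24 h. In HBL1 it was 6.07 and 5.97 at 3 h, 6.05 and 5.87 at 6 h, and 7.11 and 7.03 at 24 h. Both lines thus ended above their 3 h level, HBL1 by more, and the 24 h libraries overlapped none of the earlier ones. From 3 to 24 h, 27 genes were higher and none lower in TMD8 (median log2 change 0.35, with 16.9% of all genes higher), and 44 of 45 were higher in HBL1 (median 1.05, with 20.8% of all genes). A comparison of 6 h with 3 h was added after these values were seen. It called 13 genes lower and none higher in TMD8 (median -0.25, with 3.98% of all genes lower). In HBL1 it called ECT2 higher (0.33) and CDC25C (-1.26) and PTTG1 (-0.28) lower, with 4.29% and 5.04% of all genes. The 13 lower calls of TMD8 became 7 without the 3 h vehicle replicate 1, 2 without the 6 h replicate 1 and 6 without the 3 h replicate 2, and the 3 calls of HBL1 became 1 without the 3 h replicate 2.

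**Figure D1:**
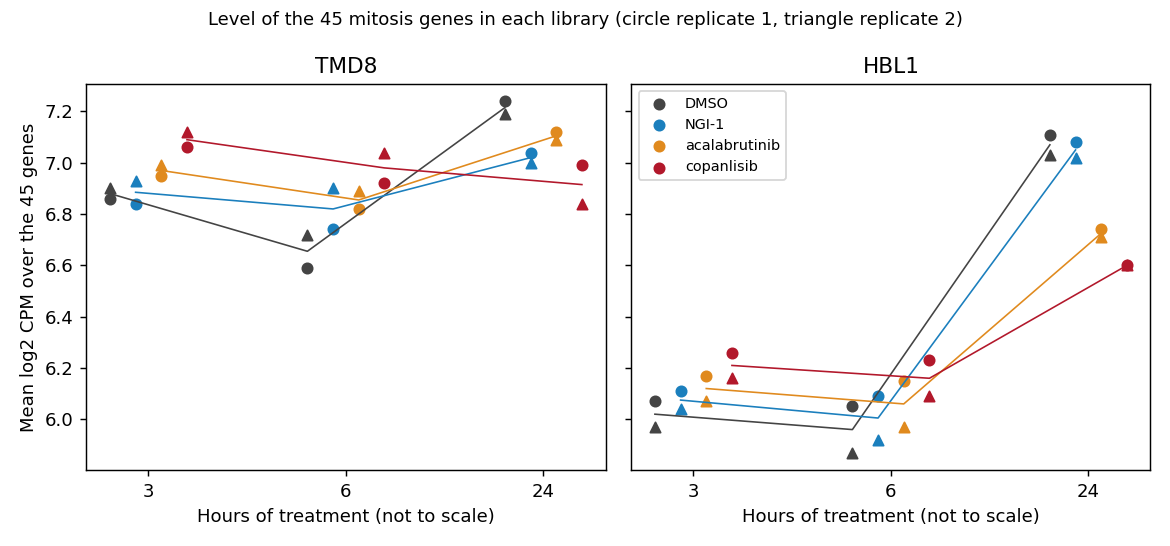
Mean log2 CPM over the 45 genes in each library (vertical axis) against hours of treatment (horizontal axis, not to scale), with TMD8 on the left and HBL1 on the right, colours for the treatments, circles for replicate 1, triangles for replicate 2 and lines through the group means. Copanlisib libraries lie above the vehicle at 3 and 6 h and below it at 24 h in both lines, and HBL1 rises in every treatment, with vehicle libraries at 7.11 and 7.03 and copanlisib libraries at 6.60 and 6.60 at 24 h.

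Within the first 6 h every call among the 45 genes against the vehicle was of a higher level, and 30 of them were made under copanlisib in TMD8 at 6 h. The mean log2 CPM in TMD8 given copanlisib was 7.06 and 7.12 at 3 h and 6.92 and 7.04 at 6 h, above both vehicle libraries at each time, and the vehicle fell between these times. In TMD8 at 6 h copanlisib raised 30 of the 45 genes and lowered none, with a median log2 change of 0.35, while 7.09% of all genes tested were higher. At 3 h only CDC25C and KIF20A were called higher in TMD8 (median 0.20, 0.648% of all genes higher). In HBL1 copanlisib raised no gene of the 45 at 3 h (median 0.19, 2.1% of all genes called) and 7 at 6 h (median 0.21, 4.19% of all genes), namely CDC25C, PLK1, KIF20A, DLGAP5, HMMR, NEK2 and FOXM1. At 3 h in HBL1, where edgeR and DESeq2 both called 0, 14 of the 45 were higher at an unadjusted p under 0.05. Of these 7, 6 were also higher in TMD8 at 6 h, all but DLGAP5. The 30 calls in TMD8 at 6 h fell to 6 without vehicle replicate 1 and to 6 without copanlisib replicate 2, and KIF20A, PRC1 and ASPM kept their call whichever library was left out. Both calls at 3 h were lost without any 1 of the 4 libraries. In HBL1 none of the 7 calls was kept without copanlisib replicate 1 or vehicle replicate 2, and without copanlisib replicate 2 those of KIF20A and HMMR were the 2 that were kept.

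Acalabrutinib raised 5 of the 45 genes at 6 h in TMD8, AURKA, KIF20A, PRC1, NEK2 and SPAG5 (median 0.20, 1.76% of all genes higher), and CDC20 and PLK1 in HBL1 (median 0.09, 2.49% of all genes higher). NGI-1 raised CENPE, KIF20A, TOP2A and HMMR at 6 h in TMD8 (median 0.17, 2.35% of all genes higher) and none in HBL1 (median 0.03), where 1.13% of all genes were called in either direction. At 3 h neither compound changed any of the 45 in either line by edgeR's test, where 0.389% (acalabrutinib in TMD8), 0.245% (acalabrutinib in HBL1), 0.771% (NGI-1 in TMD8) and 0.353% (NGI-1 in HBL1) of all genes were called. At an unadjusted p under 0.05, the counts at 3 h were 1 and 5 for acalabrutinib and 1 and 1 for NGI-1 in TMD8 and HBL1, and 3 for NGI-1 at 6 h in HBL1, all higher, and DESeq2 called 0 in each. KIF20A was the gene called higher at 6 h under all 3 compounds in TMD8. These counts changed when single libraries were left out. The replicates also shared a gap, taken as the median over the 45 genes of replicate 1 minus replicate 2. On the log2 scale it was -0.07 to -0.15 in the TMD8 groups of 6 h. In the HBL1 groups of 6 h it was 0.17 to 0.19. The part of this gap in the lost calls was not tested. Acalabrutinib's 5 calls in TMD8 fell to 0 without vehicle replicate 1 or acalabrutinib replicate 2, to 2 without acalabrutinib replicate 1 and to 3 without vehicle replicate 2. Its 2 calls in HBL1 fell to 0 without acalabrutinib replicate 1 or vehicle replicate 2 and to 1 without acalabrutinib replicate 2. The 4 calls of NGI-1 in TMD8 fell to 0 without vehicle replicate 1 or NGI-1 replicate 2 and to 2 without NGI-1 replicate 1, and in HBL1 1 call appeared at 6 h without vehicle replicate 1.

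**Figure D2:**
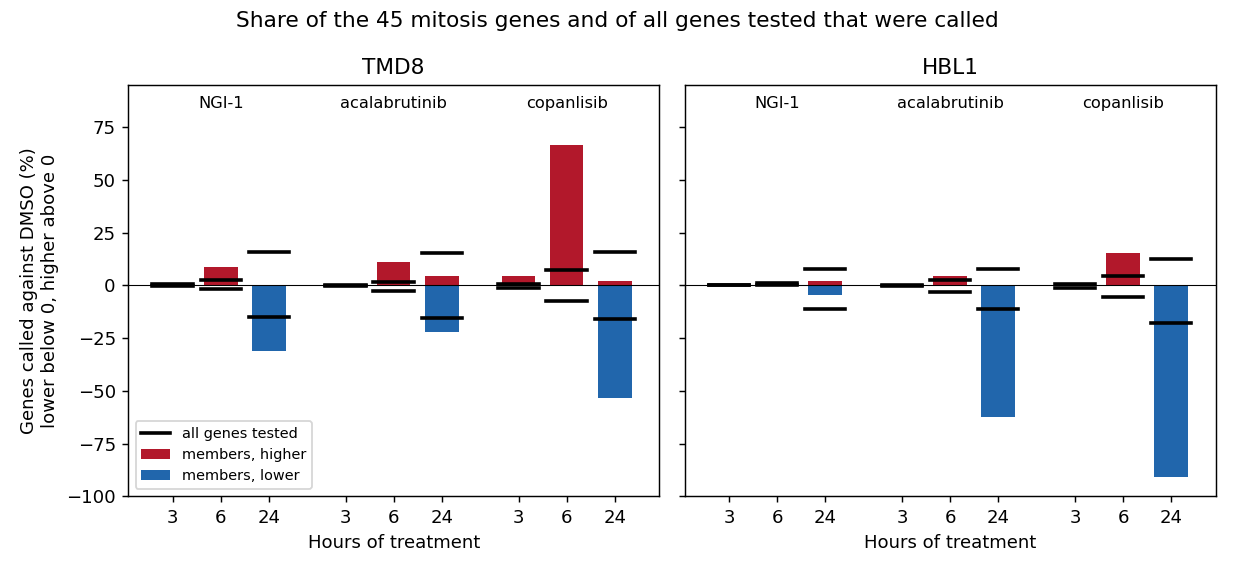
Share in percent of the 45 genes called higher (red, above 0) or lower (blue, below 0) against DMSO (vertical axis) at 3, 6 and 24 h of each compound (horizontal axis), with TMD8 on the left and HBL1 on the right and black marks for the shares of all genes tested. Copanlisib raised 30 of the 45 genes in TMD8 at 6 h and lowered 24 in TMD8 and 41 in HBL1 at 24 h, far beyond the black marks, while the NGI-1 bars in TMD8 and HBL1 are shorter.

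After 24 h most of the calls were of lower levels than in the vehicle cells, in which most of the 45 genes had risen since 3 h. Copanlisib lowered 41 of the 45 genes in HBL1 (median log2 change -0.51, 17.8% of all genes lower) and 24 in TMD8 (median -0.29, 16% of all genes lower), where CDC25B alone was higher (15.8% of all genes higher). Acalabrutinib lowered 28 in HBL1 (median -0.34, 11.4% of all genes lower) and 10 in TMD8 (median -0.12, 15.5% of all genes lower), where CDC25B and NEK2 were higher (15.5% of all genes higher). NGI-1 lowered 14 in TMD8 (median -0.21, 14.9% of all genes lower). In HBL1 it lowered CCNA2 and BUB3 and raised CDC25C (median -0.05), with 11.4% of all genes lower and 7.95% higher, so the share of the 45 genes called was below that of all genes. The median over all genes tested lay between -0.02 and 0.03 in these comparisons.

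Against the vehicle at 24 h, 32 to 37 of the 41 lower calls for copanlisib in HBL1 and 20 to 25 of the 28 for acalabrutinib in HBL1 were kept when any single library was left out. Of the 24 lower calls for copanlisib in TMD8, 16 were kept without copanlisib replicate 2 and 18 to 22 without any other library. Of the 41, 30 genes were called whichever library was left out (CCNA2, CCNB1, CCNB2, CDC20, AURKA, AURKB, PLK1, BUB1, BUB1B, BUB3, TTK, MAD2L1, CENPA, KIF11, KIF14, KIF20A, KIF20B, KIF23, KIF2C, TPX2, PRC1, DLGAP5, HMMR, FOXM1, BIRC5, UBE2C, ESPL1, ECT2, NDC80 and SPAG5). Of the 25 called in TMD8, 17 were (CCNA2, CCNB1, CCNB2, CDC20, CDC25B, AURKA, AURKB, PLK1, BUB3, TTK, MAD2L1, KIF2C, DLGAP5, HMMR, FOXM1, UBE2C and PTTG1). Of the 28 under acalabrutinib in HBL1, 19 were (CCNA2, CCNB1, CDC20, AURKA, BUB1, BUB1B, BUB3, CENPA, KIF11, KIF14, KIF2C, PRC1, DLGAP5, HMMR, FOXM1, ESPL1, ECT2, NDC80 and SPAG5). Of the genes called under NGI-1 in TMD8, CCNA2, CCNB1, AURKB, MAD2L1, KIF2C and DLGAP5 were kept throughout, and under acalabrutinib in TMD8 CCNA2, CCNB1, CDC25B, AURKB and KIF2C were. The 14 genes called under NGI-1 in TMD8 became 9 without vehicle replicate 1, and 7 of them were kept without NGI-1 replicate 2. The 3 calls of NGI-1 in HBL1 became 0 without vehicle replicate 1. The 12 calls of acalabrutinib in TMD8 became 7 without vehicle replicate 2 and 6 without acalabrutinib replicate 2.

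The same genes were not lowered everywhere. CCNA2 and BUB3 were lower in all 6 comparisons at 24 h, CDC25B, CDC25C and CKAP2 in none, and the remaining genes in 1 to 5 of them. Under copanlisib 23 genes were lower in both lines, under acalabrutinib 9 (CCNA2, CCNB1, CDC20, AURKB, PLK1, BUB3, KIF2C, FOXM1 and UBE2C) and under NGI-1 CCNA2 and BUB3. In TMD8 given copanlisib, 13 genes were called higher at 3 or 6 h and lower at 24 h (CCNB2, CDC20, AURKA, PLK1, BUB1, TTK, KIF2C, KIF4A, HMMR, FOXM1, ECT2, SPAG5 and GTSE1). Another 17 were called higher early and not called at 24 h, and 11 were called lower at 24 h alone (CCNA2, CCNB1, AURKB, BUB3, MAD2L1, KIF20B, TPX2, DLGAP5, UBE2C, PTTG1 and NUF2). In HBL1 given copanlisib, 6 genes had both calls (PLK1, KIF20A, DLGAP5, HMMR, NEK2 and FOXM1), and 35 were called lower at 24 h alone. These counts changed when single libraries of 6 h were left out. Of the 13 genes of TMD8, CCNB2 and GTSE1 kept both calls without the 6 h vehicle replicate 1 and PLK1 and SPAG5 without the 6 h copanlisib replicate 2, and none kept both whichever library was left out. Of the 6 of HBL1 none kept both without the 6 h copanlisib replicate 1 or the 6 h vehicle replicate 2. HMMR was the gene with both calls under NGI-1 in TMD8, and CDC20 and PLK1 had both under acalabrutinib in HBL1, and each of these lost a call without 1 or more single libraries. Leaving aside the calls, estimates above 0 at 3 and 6 h and below 0 at 24 h were also counted. Under copanlisib 41 genes in TMD8 and 40 in HBL1 had this pattern, under acalabrutinib 31 and 30, and under NGI-1 14 and 11. The patterns in this paragraph were counted among the listed mitosis genes only, without the share of all genes tested that shows them. Whether the counts exceed those of other genes was therefore not tested.

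**Figure D3:**
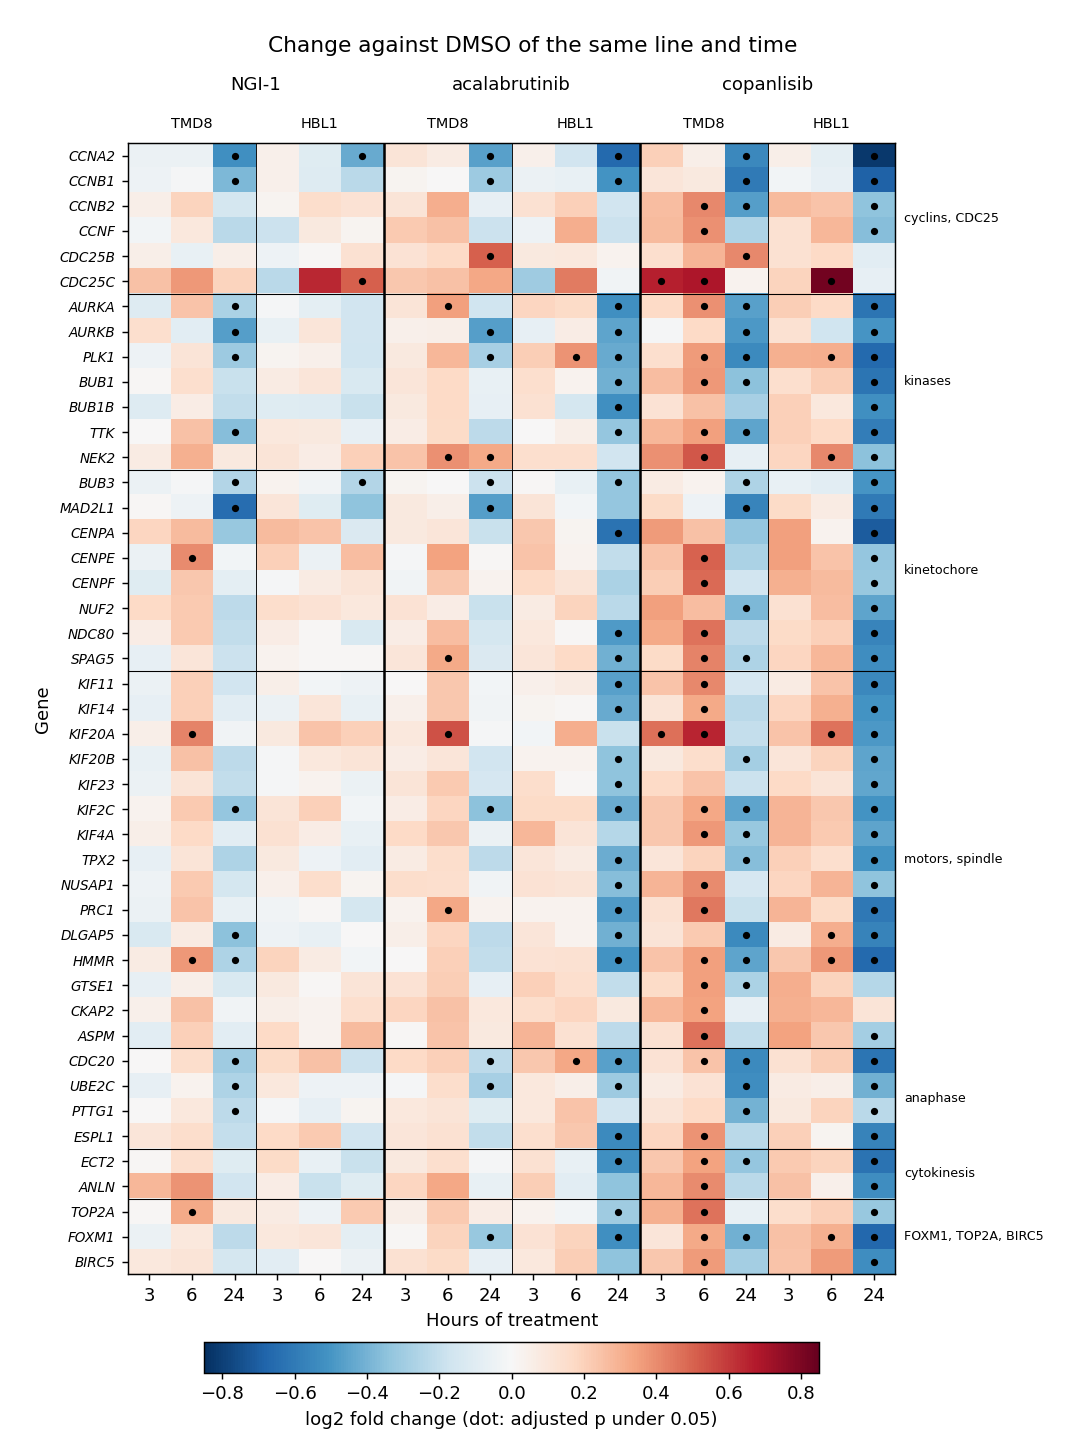
Log2 fold change against DMSO of the same line and time (colour, red higher and blue lower) for the 45 genes in 7 roles (vertical axis) at 3, 6 and 24 h of each compound in each line (horizontal axis), with a dot where the adjusted p was under 0.05. The columns of copanlisib turn from red at 3 and 6 h to blue at 24 h in both lines, and CDC25B in TMD8 at 24 h of acalabrutinib (0.51) and copanlisib (0.41) stands out as red.

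Among the 6 cyclins and CDC25 phosphatases, 4 were lower and none higher at 24 h of copanlisib in HBL1, and 3 were lower and 1 higher in TMD8. Of all genes, 17.8% were lower and 12.7% higher in HBL1, and 16% and 15.8% in TMD8. CCNA2 encodes cyclin A2, the partner of CDK2 in S phase and of CDK1 in G2. Its level at 24 h was 190.5 and 190.0 CPM with the vehicle, 134 and 131 CPM with NGI-1, 139 and 138 CPM with acalabrutinib and 133 and 126 CPM with copanlisib in TMD8. In HBL1 it was 226 and 195 CPM with the vehicle, 163 and 149.7 CPM with NGI-1, 133 and 135 CPM with acalabrutinib and 120.4 and 119 CPM with copanlisib. Both vehicle libraries were above all 6 treated libraries in each line. CCNA2 changed by -0.82 ± 0.10 (adjusted p = 3.8e-08) under copanlisib, -0.66 ± 0.10 (adjusted p = 5.8e-06) under acalabrutinib and -0.43 ± 0.10 (adjusted p = 0.0013) under NGI-1 in HBL1. In TMD8 the changes were -0.55 ± 0.10 (adjusted p = 3.4e-05), -0.46 ± 0.10 (adjusted p = 0.00037) and -0.52 ± 0.10 (adjusted p = 7.5e-05) in the same order. The CCNA2 call for NGI-1 at 24 h in HBL1 was lost without vehicle replicate 1 (adjusted p = 0.08). CCNB1 encodes cyclin B1, the cyclin of mitotic entry. It stood at 338 and 344 CPM with the vehicle and 237 and 213 CPM with copanlisib in TMD8 at 24 h, and at 366 and 319 CPM with the vehicle against 207 and 219 CPM in HBL1. The copanlisib libraries were below the vehicle libraries in both lines, with changes of -0.60 ± 0.09 (adjusted p = 1.1e-06) and -0.69 ± 0.09 (adjusted p = 1e-07). Acalabrutinib also lowered CCNB1 in both lines (-0.31, adjusted p = 0.0048 and -0.51, adjusted p = 4.3e-05), and NGI-1 lowered it in TMD8 (-0.38, adjusted p = 0.00065), while in HBL1 the estimate was -0.23 (adjusted p = 0.061). None of the CCNB1 calls was lost when a single library was left out.

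The phosphatases took another course. CDC25C removes the inhibitory phosphates from CDK1. In TMD8 it was at 8.56 and 10.1 CPM with the vehicle and 11.9 and 17.9 CPM with copanlisib at 6 h, and in HBL1 at 3.27 and 2.94 CPM with the vehicle against 5.79 and 5.26 CPM. The copanlisib libraries lay above the vehicle libraries in both lines. The changes were 0.69 ± 0.18 (adjusted p = 0.0055) in TMD8 and 0.82 ± 0.25 (adjusted p = 0.024) in HBL1, and CDC25C had risen at 3 h in TMD8 as well (0.66, adjusted p = 0.03). At 24 h NGI-1 raised it in HBL1, from 10.9 and 10.6 to 16.4 and 14.1 CPM (0.51 ± 0.17, adjusted p = 0.033). The CDC25C call for copanlisib at 3 h in TMD8 was lost without any 1 of its 4 libraries (adjusted p = 0.098 to 0.33). The CDC25C call for copanlisib at 6 h in TMD8 was lost without vehicle replicate 1 or copanlisib replicate 2 (adjusted p = 0.12 to 0.36). The CDC25C call for copanlisib at 6 h in HBL1 was lost without any 1 of its 4 libraries (adjusted p = 0.076 to 0.14). The CDC25C call for NGI-1 at 24 h in HBL1 was lost without NGI-1 replicate 1 or either vehicle library (adjusted p = 0.12 to 0.25). CDC25B activates the cyclin B kinase at the centrosome. It stood at 65.3 and 60.3 CPM with the vehicle, 63.5 and 66.1 CPM with NGI-1, 83.2 and 95.5 CPM with acalabrutinib and 80.5 and 85.9 CPM with copanlisib in TMD8 at 24 h. The acalabrutinib and copanlisib libraries were above both vehicle libraries (0.51 ± 0.10, adjusted p = 5.9e-05 and 0.41 ± 0.10, adjusted p = 0.0011), and neither call was lost without any 1 library. In HBL1 CDC25B was at 87.6 and 82.7 CPM with the vehicle, 87.2 and 87.2 CPM with acalabrutinib and 82.6 and 77.2 CPM with copanlisib, with estimates of 0.03 and -0.09. The remaining cyclins are CCNB2, the second B-type cyclin, and CCNF, a substrate receptor of the SCF ubiquitin ligase. Both rose at 6 h of copanlisib in TMD8 (0.41 and 0.39) and fell at 24 h in HBL1 (-0.34 and -0.36), and CCNB2 fell in TMD8 too (-0.47). Each of these CCNF calls was lost without any 1 of its 4 libraries. The CCNB2 call at 6 h in TMD8 was lost without copanlisib replicate 2.

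All 7 mitotic kinases were lower at 24 h of copanlisib in HBL1 (17.8% of all genes) and 5 of 7 in TMD8 (16%). At 6 h in TMD8 5 of 7 had been higher (7.09% of all genes). PLK1, the Polo-like kinase of centrosome maturation and mitotic entry, showed both changes in both lines. At 6 h it was at 174 and 182 CPM with the vehicle and 232 and 224 CPM with copanlisib in TMD8, and at 140.4 and 119 CPM with the vehicle against 161 and 160.2 CPM in HBL1. At 24 h it was at 275 and 268 CPM with the vehicle and 202 and 171 CPM with copanlisib in TMD8, and at 372 and 309 CPM with the vehicle against 212 and 219 CPM in HBL1. The groups did not overlap at either time. The changes were 0.36 ± 0.10 (adjusted p = 0.01) in TMD8 and 0.31 ± 0.10 (adjusted p = 0.042) in HBL1 at 6 h. At 24 h they were -0.54 ± 0.10 (adjusted p = 4.1e-05) and -0.66 ± 0.10 (adjusted p = 1.4e-06). Acalabrutinib raised PLK1 at 6 h in HBL1 (0.38) and lowered it at 24 h in HBL1 (-0.43) and TMD8 (-0.28), and NGI-1 lowered it at 24 h in TMD8 (-0.31). The PLK1 call for copanlisib at 6 h in TMD8 was lost without vehicle replicate 1 or copanlisib replicate 1 (adjusted p = 0.077 to 0.11). The PLK1 call for copanlisib at 6 h in HBL1 was lost without vehicle replicate 2 or either copanlisib library (adjusted p = 0.15 to 0.37). The PLK1 call for acalabrutinib at 6 h in HBL1 was lost without vehicle replicate 2 or either acalabrutinib library (adjusted p = 0.063 to 0.23). The PLK1 call for acalabrutinib at 24 h in HBL1 was lost without vehicle replicate 1 (adjusted p = 0.1). The PLK1 call for acalabrutinib at 24 h in TMD8 was lost without acalabrutinib replicate 2 or either vehicle library (adjusted p = 0.069 to 0.25). The PLK1 call for NGI-1 at 24 h in TMD8 was lost without vehicle replicate 1 or NGI-1 replicate 2 (adjusted p = 0.079 to 0.097).

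AURKA, the Aurora kinase of the spindle poles, was at 105 and 122 CPM with the vehicle and 141 and 156 CPM with copanlisib at 6 h in TMD8, and at 166 and 163 CPM with the vehicle against 126 and 114 CPM at 24 h. In HBL1 at 24 h it was at 116 and 115 CPM with the vehicle and 73.03 and 76.9 CPM with copanlisib. The groups were apart in all 3 comparisons, with changes of 0.39 ± 0.10 (adjusted p = 0.0074), -0.46 ± 0.10 (adjusted p = 0.00073) and -0.62 ± 0.11 (adjusted p = 2.1e-05). The AURKA call for copanlisib at 6 h in TMD8 was lost without vehicle replicate 1 or copanlisib replicate 2 (adjusted p = 0.14 to 0.19). BUB1, a checkpoint kinase of the kinetochore, stood at 165 and 178 CPM with the vehicle and 212 and 231 CPM with copanlisib at 6 h in TMD8, and at 289 and 292 CPM with the vehicle against 244 and 212 CPM at 24 h. In HBL1 it stood at 204 and 204 CPM with the vehicle against 135 and 129 CPM at 24 h. No copanlisib library fell within the vehicle values in these comparisons, and the changes were 0.37 ± 0.09 (adjusted p = 0.0046), -0.35 ± 0.09 (adjusted p = 0.0032) and -0.62 ± 0.09 (adjusted p = 2.3e-06). The BUB1 call for copanlisib at 6 h in TMD8 was lost without vehicle replicate 1 or copanlisib replicate 2 (adjusted p = 0.098 to 0.099). The BUB1 call for copanlisib at 24 h in TMD8 was lost without copanlisib replicate 2 (adjusted p = 0.1). AURKB, the kinase of the chromosomal passenger complex, was lower at 24 h under all 3 compounds in TMD8 (estimates -0.47, -0.47 and -0.49 for NGI-1, acalabrutinib and copanlisib) and under acalabrutinib (-0.45) and copanlisib (-0.50) in HBL1. TTK, also called MPS1, which starts checkpoint signalling, rose at 6 h of copanlisib in TMD8 (0.35) and fell at 24 h in both lines (-0.45 and -0.59). The TTK call at 6 h was lost without vehicle replicate 1 or copanlisib replicate 2. BUB1B, which encodes the checkpoint protein BUBR1, fell in HBL1 under acalabrutinib (-0.52) and copanlisib (-0.52). NEK2, a kinase that splits the centrosomes, was at 84.8 and 87.7 CPM with the vehicle and 106 and 109.5 CPM with acalabrutinib at 24 h in TMD8, a rise of 0.32 (adjusted p = 0.015). Under copanlisib NEK2 rose at 6 h in TMD8 (0.53) and HBL1 (0.41) and fell at 24 h in HBL1 (-0.35). The NEK2 call for acalabrutinib at 24 h in TMD8 was lost without vehicle replicate 1 or acalabrutinib replicate 2 (adjusted p = 0.09 to 0.095). The NEK2 call for copanlisib at 6 h in TMD8 was lost without copanlisib replicate 2 (adjusted p = 0.053). The NEK2 call for copanlisib at 6 h in HBL1 was lost without vehicle replicate 2 or either copanlisib library (adjusted p = 0.064 to 0.34). The NEK2 call for copanlisib at 24 h in HBL1 was lost without copanlisib replicate 1 or either vehicle library (adjusted p = 0.052 to 0.086).

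**Figure D4:**
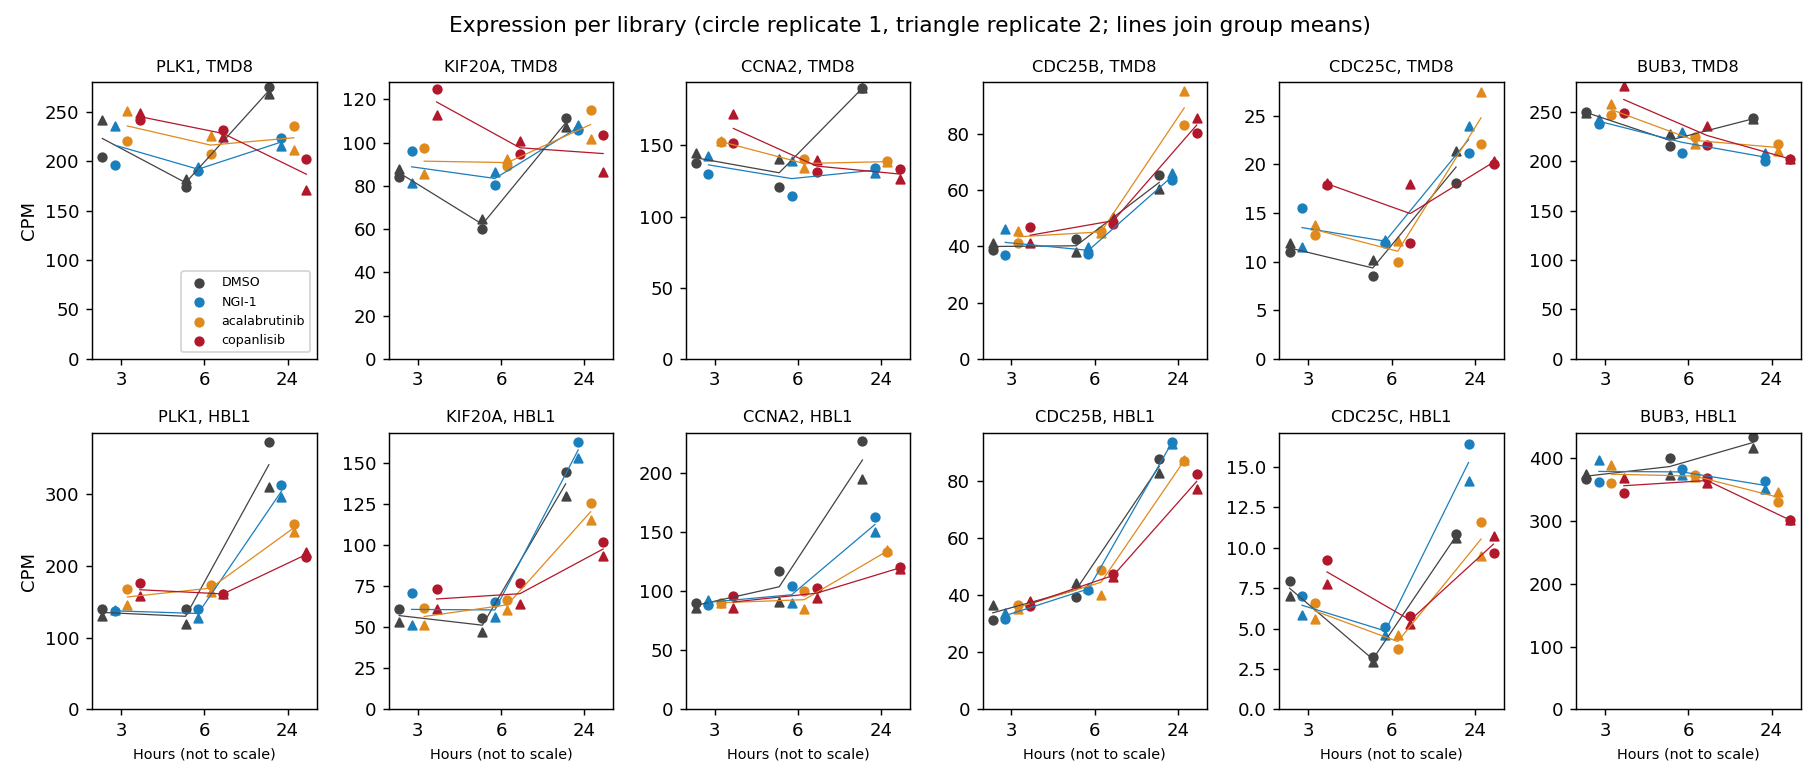
CPM (vertical axes, from 0) of PLK1, KIF20A, CCNA2, CDC25B, CDC25C and BUB3 in each library against hours of treatment (horizontal axes, not to scale), with TMD8 above and HBL1 below, colours for the treatments, circles for replicate 1, triangles for replicate 2 and lines through group means. CCNA2 and BUB3 are lower with each compound than with the vehicle at 24 h in both lines, CDC25B is higher with acalabrutinib and copanlisib at 24 h in TMD8, and PLK1 with copanlisib goes from above the vehicle at 6 h to below it at 24 h.

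All 8 kinetochore and checkpoint genes were lower at 24 h of copanlisib in HBL1 (median -0.51, 17.8% of all genes) and 4 of 8 in TMD8 (16%). At 6 h in TMD8 4 of 8 had been higher (7.09% of all genes). BUB3 binds the kinetochore with BUB1 and BUBR1. At 24 h it stood at 244 and 243 CPM with the vehicle, 200.3 and 208 CPM with NGI-1, 218 and 211 CPM with acalabrutinib and 203 and 202 CPM with copanlisib in TMD8. In HBL1 the levels were 433 and 416 CPM with the vehicle, 362 and 349.8 CPM with NGI-1, 329 and 346 CPM with acalabrutinib and 301 and 301 CPM with copanlisib. Both vehicle libraries exceeded all treated ones in each line, although by little. The changes for NGI-1, acalabrutinib and copanlisib were -0.25 ± 0.07 (adjusted p = 0.0052), -0.18 ± 0.07 (adjusted p = 0.042) and -0.26 ± 0.07 (adjusted p = 0.0033) in TMD8. In HBL1 they were -0.25 ± 0.07 (adjusted p = 0.0068), -0.33 ± 0.07 (adjusted p = 0.00054) and -0.50 ± 0.07 (adjusted p = 5.4e-07). The BUB3 call for NGI-1 at 24 h in TMD8 was lost without NGI-1 replicate 1 (adjusted p = 0.063). The BUB3 call for NGI-1 at 24 h in HBL1 was lost without vehicle replicate 1 or NGI-1 replicate 2 (adjusted p = 0.078 to 0.092). The BUB3 call for acalabrutinib at 24 h in TMD8 was lost without any 1 of its 4 libraries (adjusted p = 0.072 to 0.2). CENPE, the kinesin that carries chromosomes to the spindle equator, was at 132 and 151 CPM with the vehicle, 162 and 210.2 CPM with NGI-1 and 182 and 217 CPM with copanlisib at 6 h in TMD8. Both treatments lay above the vehicle libraries (0.40 ± 0.11, adjusted p = 0.028 and 0.50 ± 0.11, adjusted p = 0.0012). At 24 h in HBL1 it was at 151 and 146 CPM with the vehicle and 129 and 107 CPM with copanlisib, a change of -0.33 ± 0.11 (adjusted p = 0.022). The CENPE call for NGI-1 at 6 h in TMD8 was lost without vehicle replicate 1 or NGI-1 replicate 2 (adjusted p = 0.41 to 0.61). The CENPE call for copanlisib at 6 h in TMD8 was lost without vehicle replicate 1 or copanlisib replicate 2 (adjusted p = 0.064 to 0.091). The CENPE call for copanlisib at 24 h in HBL1 was lost without copanlisib replicate 2 or either vehicle library (adjusted p = 0.051 to 0.31). MAD2L1, the MAD2 protein that binds CDC20 in the checkpoint, was lower at 24 h in TMD8 under all 3 compounds (estimates -0.65, -0.47 and -0.56 for NGI-1, acalabrutinib and copanlisib) and in HBL1 under copanlisib (-0.60). CENPA, the histone of the centromere, fell in HBL1 under acalabrutinib (-0.63) and copanlisib (-0.71). NDC80 and NUF2 form the kinetochore's attachment to microtubules. NDC80 rose at 6 h of copanlisib in TMD8 (0.46) and fell at 24 h in HBL1 (-0.56), whereas NUF2 was called at 24 h of copanlisib alone (-0.38 in TMD8 and -0.45 in HBL1). CENPF, of the outer kinetochore, and SPAG5, also called astrin, rose at 6 h in TMD8 (0.48 and 0.42) and fell at 24 h in HBL1 (-0.32 and -0.53), SPAG5 in TMD8 also (-0.26).

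Of the 15 motor and spindle genes, 11 were higher at 6 h of copanlisib in TMD8 (7.09% of all genes). At 24 h 7 were lower in TMD8 (16% of all genes) and 13 in HBL1 (median -0.49, 17.8% of all genes). KIF20A, a kinesin of the central spindle also called MKLP2, was the gene called early most often. At 6 h in TMD8 it stood at 60 and 64.5 CPM with the vehicle, 80.4 and 86.5 CPM with NGI-1, 89.1 and 92.6 CPM with acalabrutinib and 94.7 and 101 CPM with copanlisib. Both vehicle libraries were below all 6 treated ones, with changes of 0.42 ± 0.12 (adjusted p = 0.039) for NGI-1, 0.54 ± 0.12 (adjusted p = 0.0042) for acalabrutinib and 0.65 ± 0.12 (adjusted p = 0.00018) for copanlisib. In HBL1 it went from 55.6 and 46.9 CPM with the vehicle to 76.8 and 63.98 CPM with copanlisib at 6 h (0.46 ± 0.13, adjusted p = 0.014). At 24 h in HBL1 it was at 145 and 129.7 CPM with the vehicle and 102 and 93.5 CPM with copanlisib (-0.49 ± 0.12, adjusted p = 0.0012), the copanlisib libraries now being the lower ones. The KIF20A call for copanlisib at 3 h in TMD8 was lost without any 1 of its 4 libraries (adjusted p = 0.058 to 0.28). The KIF20A call for NGI-1 at 6 h in TMD8 was lost without any 1 of its 4 libraries (adjusted p = 0.093 to 0.34). The KIF20A call for acalabrutinib at 6 h in TMD8 was lost without vehicle replicate 1 or acalabrutinib replicate 2 (adjusted p = 0.072 to 0.11). The KIF20A call for copanlisib at 6 h in HBL1 was lost without copanlisib replicate 1 or vehicle replicate 2 (adjusted p = 0.19 to 0.25). TPX2, which carries AURKA to the spindle, was at 370.0 and 333 CPM with the vehicle and 304 and 242 CPM with copanlisib at 24 h in TMD8, and at 340.1 and 317 CPM with the vehicle against 235 and 226 CPM in HBL1. It was lower in both lines (-0.36 ± 0.10, adjusted p = 0.0065 and -0.51 ± 0.11, adjusted p = 0.00021), and it was not called at 3 or 6 h. The TPX2 call for copanlisib at 24 h in TMD8 was lost without vehicle replicate 1 or copanlisib replicate 2 (adjusted p = 0.1 to 0.24). PRC1, the crosslinker of the midzone, was at 164 and 166 CPM with the vehicle and 114 and 123 CPM with acalabrutinib at 24 h in HBL1, and at 184 and 186 CPM with the vehicle against 198 and 179 CPM in TMD8. It fell in HBL1 (-0.48 ± 0.10, adjusted p = 4e-04) and had an estimate of 0.03 in TMD8 (adjusted p = 0.89).

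Under copanlisib 7 other genes of this group rose at 6 h in TMD8 and fell at 24 h in HBL1. These were KIF11, the Eg5 motor that separates the poles (0.41 and -0.55), KIF14 of the midbody (0.32 and -0.51), KIF4A of the chromosome arms (0.37 and -0.45), KIF2C, the microtubule-depolymerising MCAK (0.33 and -0.51), HMMR of the spindle poles (0.35 and -0.66), NUSAP1, which bundles microtubules (0.40 and -0.34), and ASPM, which focuses the poles (0.46 and -0.29). KIF2C, KIF4A and HMMR fell at 24 h in TMD8 as well (-0.45, -0.32 and -0.45). DLGAP5, which stabilises kinetochore fibres, rose at 6 h in HBL1 (0.31) and fell at 24 h in TMD8 (-0.54) and HBL1 (-0.57). KIF23, the motor of the centralspindlin complex, fell at 24 h of copanlisib in HBL1 (-0.44), and KIF20B, a motor of late cytokinesis, in both lines (-0.29 and -0.45). GTSE1, a regulator of microtubules and of p53, rose at 6 h (0.35) and fell at 24 h (-0.27) in TMD8, with an estimate of -0.24 in HBL1 at 24 h (adjusted p = 0.07). CKAP2, which promotes microtubule growth, rose at 6 h in TMD8 (0.34) and had an estimate of 0.11 in HBL1 at 24 h (adjusted p = 0.45). Of the calls at 6 h in this paragraph, that of ASPM alone was kept whichever library was left out. At 24 h the calls of KIF4A, NUSAP1 and ASPM in HBL1 were each lost without 1 or more single libraries. So were those of KIF4A, KIF20B and GTSE1 in TMD8.

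Of the 4 regulators of anaphase, all were lower at 24 h of copanlisib in HBL1 (17.8% of all genes) and 3 in TMD8 (16%). CDC20 activates the anaphase-promoting complex. It stood at 245 and 230.0 CPM with the vehicle and 171 and 156 CPM with copanlisib in TMD8 at 24 h, and at 351 and 313 CPM with the vehicle against 221 and 211 CPM in HBL1. The groups did not overlap in either line (-0.54 ± 0.08, adjusted p = 2.4e-06 and -0.62 ± 0.08, adjusted p = 1.7e-07). Early, it was higher under copanlisib in TMD8 (172 and 163 CPM with the vehicle against 200.2 and 196 CPM at 6 h, 0.24 ± 0.08, adjusted p = 0.043) and under acalabrutinib in HBL1 (139.6 and 113 CPM with the vehicle against 165 and 152 CPM, 0.33 ± 0.08, adjusted p = 0.014). The CDC20 call for copanlisib at 6 h in TMD8 was lost without any 1 of its 4 libraries (adjusted p = 0.099 to 0.25). The CDC20 call for acalabrutinib at 6 h in HBL1 was lost without acalabrutinib replicate 1 or vehicle replicate 2 (adjusted p = 0.18 to 0.3). UBE2C is the ubiquitin-conjugating enzyme of the same complex. It was at 113 and 122 CPM with the vehicle and 86.3 and 76.4 CPM with copanlisib in TMD8 at 24 h and at 92.7 and 86.8 CPM with the vehicle against 64.6 and 70.5 CPM in HBL1. It was lower in both (-0.53 ± 0.08, adjusted p = 2.1e-06 and -0.41 ± 0.08, adjusted p = 0.00016), and neither call was lost without any 1 library. PTTG1, the securin that holds separase inactive, fell at 24 h of copanlisib in TMD8 (-0.40) and HBL1 (-0.23). ESPL1, the separase, rose at 6 h in TMD8 (0.38) and fell at 24 h in HBL1 (-0.57).

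Both cytokinesis genes rose at 6 h of copanlisib in TMD8 (7.09% of all genes higher) and fell at 24 h in HBL1 (17.8% lower). ANLN encodes anillin, the scaffold of the contractile ring. It was at 43.5 and 45.5 CPM with the vehicle and 53.8 and 63.1 CPM with copanlisib at 6 h in TMD8 (0.40 ± 0.13, adjusted p = 0.039). It was at 30.6 and 25.7 CPM with the vehicle against 18.6 and 20.5 CPM at 24 h in HBL1 (-0.53 ± 0.16, adjusted p = 0.0075). The ANLN call for copanlisib at 6 h in TMD8 was lost without copanlisib replicate 2 or either vehicle library (adjusted p = 0.11 to 0.38). The ANLN call for copanlisib at 24 h in HBL1 was lost without vehicle replicate 1 or copanlisib replicate 1 (adjusted p = 0.087 to 0.15). ECT2, the exchange factor that activates RhoA at the ring, rose at 6 h in TMD8 (0.34) and fell at 24 h in TMD8 (-0.33) and HBL1 (-0.63). The transcription factor FOXM1, topoisomerase TOP2A and survivin, encoded by BIRC5, had the same 2 changes. FOXM1 was at 98.3 and 108 CPM with the vehicle and 123 and 134 CPM with copanlisib at 6 h in TMD8, and at 166 and 171 CPM with the vehicle against 133 and 119.7 CPM at 24 h. In HBL1 FOXM1 was at 84.5 and 80.9 CPM with the vehicle against 102 and 102 CPM at 6 h and at 259.5 and 227 CPM with the vehicle against 156 and 151 CPM at 24 h. Its libraries with copanlisib were above the vehicle at 6 h and below it at 24 h in both lines (0.32 ± 0.10, adjusted p = 0.018 and -0.41 ± 0.10, adjusted p = 0.00084 in TMD8, 0.30 ± 0.10, adjusted p = 0.047 and -0.67 ± 0.09, adjusted p = 5.9e-07 in HBL1). The FOXM1 call for copanlisib at 6 h in TMD8 was lost without vehicle replicate 1 or copanlisib replicate 2 (adjusted p = 0.22). The FOXM1 call for copanlisib at 6 h in HBL1 was lost without any 1 of its 4 libraries (adjusted p = 0.13 to 0.2). TOP2A was at 485 and 562 CPM with the vehicle, 629 and 680.3 CPM with NGI-1 and 682 and 755 CPM with copanlisib at 6 h in TMD8, above the vehicle with both compounds (0.32 ± 0.10, adjusted p = 0.045 and 0.46 ± 0.10, adjusted p = 0.00079). At 24 h in HBL1 it was at 834 and 799.6 CPM with the vehicle and 679 and 632 CPM with copanlisib (-0.32 ± 0.10, adjusted p = 0.01). The TOP2A call for NGI-1 at 6 h in TMD8 was lost without vehicle replicate 1 or either NGI-1 library (adjusted p = 0.088 to 0.53). The TOP2A call for copanlisib at 6 h in TMD8 was lost without vehicle replicate 1 (adjusted p = 0.061). The TOP2A call for copanlisib at 24 h in HBL1 was lost without vehicle replicate 1 or copanlisib replicate 2 (adjusted p = 0.087 to 0.11). For BIRC5 the changes were 0.36 in TMD8 at 6 h (adjusted p = 0.049) and -0.53 in HBL1 at 24 h (adjusted p = 0.0011).

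Whether the effect at 24 h differed from the early effect was tested directly, as the change against the vehicle at 24 h minus that at 3 or 6 h. Under copanlisib the effect moved down between 6 and 24 h for 37 of the 45 genes in TMD8 (median difference -0.65, 3.58% of all genes) and 39 in HBL1 (median -0.67, 3.58% of all genes). Between 3 and 24 h it moved down for 29 in TMD8 (median -0.52, 5.82% of all genes) and 40 in HBL1 (median -0.69, 5.73% of all genes). Under acalabrutinib the counts between 6 and 24 h were 12 in TMD8 (3.93% of all genes) and 11 in HBL1 (1.19% of all genes). Between 3 and 24 h they were 5 (7.88% of all genes) and 21 (2% of all genes). Under NGI-1 they were 10 (3.75% of all genes) and 1 (2.47% of all genes) between 6 and 24 h, and 4 (6.09% of all genes) and 1 (2.59% of all genes) between 3 and 24 h. No gene of the 45 moved up in any of these 12 tests. A downward difference of effects is measured against a vehicle that rose, and does not say that the treated cells fell.

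Single libraries moved these counts. For copanlisib between 6 and 24 h, the 37 of TMD8 became 23 without the 6 h vehicle replicate 1, and the 39 of HBL1 became 22 without the 6 h copanlisib replicate 1 and 18 without the 6 h vehicle replicate 2. Between 3 and 24 h, the 29 of TMD8 became 18 without the 3 h vehicle replicate 1, 14 without the 3 h copanlisib replicate 2 and 15 without the 24 h copanlisib replicate 2, and the 40 of HBL1 became 23 without the 3 h vehicle replicate 2. For acalabrutinib between 6 and 24 h, the 12 of TMD8 became 3 without the 6 h vehicle replicate 1, 7 without the 6 h acalabrutinib replicate 1, 5 without either 24 h vehicle library, 2 without the 6 h acalabrutinib replicate 2 and 3 without the 24 h acalabrutinib replicate 2. The 11 of HBL1 became 17 without the 6 h vehicle replicate 1, 5 without the 6 h acalabrutinib replicate 1, 6 without the 24 h vehicle replicate 1 or the 24 h acalabrutinib replicate 1, and 7 without the 6 h vehicle replicate 2. Between 3 and 24 h, the 5 of TMD8 became 1 without the 3 h vehicle replicate 1 or the 3 h acalabrutinib replicate 2, 2 without the 24 h vehicle replicate 1 or the 24 h acalabrutinib replicate 2, and 3 without the 24 h vehicle replicate 2. The 21 of HBL1 became 6 without the 3 h acalabrutinib replicate 1, 8 without the 24 h vehicle replicate 1 or the 3 h vehicle replicate 2, and 11 without the 24 h acalabrutinib replicate 1. For NGI-1 between 6 and 24 h, the 10 of TMD8 became 2 without the 6 h NGI-1 replicate 2, 4 without the 6 h or the 24 h vehicle replicate 1, and 5 without the 24 h NGI-1 replicate 1, the 24 h vehicle replicate 2 or the 24 h NGI-1 replicate 2. Between 3 and 24 h, the 4 of TMD8 became 1 without the 3 h vehicle replicate 1, the 24 h NGI-1 replicate 1 or the 3 h NGI-1 replicate 2, and 2 without either 24 h vehicle library. In HBL1 each NGI-1 count was a single gene, CCNA2 between 3 and 24 h and CDC20 between 6 and 24 h. The first count became 2 without the 24 h vehicle replicate 2 and 0 without any other of the 8 libraries. The second became 2 without the 6 h vehicle replicate 1 and 0 without the 6 h NGI-1 replicate 1 or 2, the 24 h vehicle replicate 1, the 6 h vehicle replicate 2 or the 24 h NGI-1 replicate 2.

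The treated cells' own course, each compound at 24 h against the same compound at 3 h, was added after the vehicle's change was seen. In TMD8 the mean log2 CPM with copanlisib went from 7.06 and 7.12 at 3 h to 6.99 and 6.84 at 24 h, so that both late libraries lay below both early ones. Here 19 genes fell and 2 rose (median -0.20, 19.1% of all genes lower and 20% higher). In HBL1 it went from 6.26 and 6.16 to 6.60 and 6.60, with 32 genes higher and 2 lower (median 0.40, 14.9% of all genes higher and 16.8% lower). The genes lower than the vehicle in HBL1 at 24 h of copanlisib thus stood, for the most part, above their own level at 3 h. With acalabrutinib 15 genes rose and 5 fell in TMD8 (median 0.13, 22.3% and 20.3% of all genes), and 42 rose in HBL1 (median 0.62, 16.1% of all genes). With NGI-1 15 rose and 4 fell in TMD8 (median 0.14, 20.9% and 18.5% of all genes), and 43 rose in HBL1 (median 1.03, 20.1% of all genes). In TMD8 the total of 21 calls for copanlisib became 13 without the 24 h copanlisib replicate 2, and the 20 for acalabrutinib became 12 without its 3 h and 13 without its 24 h replicate 1. The 19 for NGI-1 became 12 without its 24 h replicate 1. In HBL1 the 34 calls for copanlisib became 22 without its 3 h replicate 2.

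The compounds were compared with each other at 24 h, each at its single dose and with no dose matched to another. The compounds are not related in structure. In HBL1 37 of the 45 genes were higher with NGI-1 than with copanlisib (median 0.46, 2.67% of all genes higher) and 15 were higher with NGI-1 than with acalabrutinib (median 0.33, 1.53% of all genes higher). The mean log2 CPM was 7.08 and 7.02 with NGI-1, 6.74 and 6.71 with acalabrutinib and 6.60 and 6.60 with copanlisib, so the 3 groups did not overlap. Between copanlisib and acalabrutinib no gene of the 45 was called in HBL1, where 0.101% of all genes were called (7 lower with copanlisib at an unadjusted p under 0.05 by edgeR, and 0 called by DESeq2). In TMD8 CDC25B was lower with NGI-1 than with acalabrutinib (-0.46, 0.187% of all genes lower) and than with copanlisib (-0.36, 0.331% of all genes lower), and CCNB2 was lower with copanlisib than with acalabrutinib (-0.40, 0.151% of all genes lower). No other gene of the 45 was called between compounds in TMD8. The 37 calls became 23 without copanlisib replicate 1 and 20 without NGI-1 replicate 1. The 15 became 6 without acalabrutinib replicate 1, 3 without NGI-1 replicate 1 and 5 without acalabrutinib replicate 2. In TMD8 the call against acalabrutinib became 0 without NGI-1 replicate 1 or acalabrutinib replicate 2, and the calls of CDC25B against copanlisib and of CCNB2 became 0 without any 1 of the 4 libraries.

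Fewer genes were called in TMD8 than in HBL1 at 24 h of acalabrutinib and copanlisib, and the difference between the lines was tested on each gene. For acalabrutinib 3 genes had a higher effect in TMD8 than in HBL1 (2.23% of all genes), CDC25B (0.48 ± 0.13, adjusted p = 0.03), PRC1 (0.51 ± 0.14, adjusted p = 0.022) and ECT2 (0.51 ± 0.14, adjusted p = 0.022). For copanlisib CDC25B alone did (0.50 ± 0.13, adjusted p = 0.022, 2.19% of all genes). For NGI-1 at 24 h, and for all compounds at 3 and 6 h, no gene of the 45 was called by edgeR's test. Of all genes, 0.0072%, 0.0216% and 2.51% were called for NGI-1 at 3, 6 and 24 h, 0% and 0.166% for acalabrutinib at 3 and 6 h, and 0.0576% and 0.584% for copanlisib at 3 and 6 h. At an unadjusted p under 0.05 these 7 tests gave 0 at 3 h for every compound, 4 for NGI-1, 1 for acalabrutinib and 2 for copanlisib at 6 h, all with the higher effect in TMD8, and 6 for NGI-1 at 24 h, with the lower effect in TMD8. DESeq2 called 0 in each. For acalabrutinib all 3 calls were lost without the HBL1 vehicle replicate 1, the HBL1 acalabrutinib replicate 1 or the TMD8 vehicle replicate 2. Those of PRC1 and ECT2 were lost without the TMD8 acalabrutinib replicate 1, that of PRC1 without the TMD8 vehicle replicate 1 or the HBL1 vehicle replicate 2, and that of CDC25B without acalabrutinib replicate 2 of either line. The call of CDC25B for copanlisib was lost without the HBL1 vehicle replicate 1, the TMD8 vehicle replicate 2 or copanlisib replicate 2 of either line. For the other genes, a call in HBL1 and none in TMD8 is not shown to be a difference between the lines.

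A second list held 57 other genes of mitosis, of which 54 were tested. At 24 h of copanlisib 47 were lower in HBL1 (median -0.50, 17.8% of all genes lower) and 28 in TMD8 (median -0.28, 16% of all genes lower). In TMD8 at 6 h it raised 12 and lowered 1 (median 0.16, 7.09% of all genes higher and 7.46% lower). KNTC1, a kinetochore protein of the checkpoint, changed by -0.57 ± 0.08 (adjusted p = 3.2e-07) in HBL1 and TUBA1C, an alpha-tubulin, by -0.84 ± 0.10 (adjusted p = 2.8e-08) in TMD8. Acalabrutinib lowered 29 in HBL1 (11.4% of all genes lower) and 15 in TMD8 (15.5%). NGI-1 lowered 6 in HBL1 (11.4%), a share near that of all genes, and 21 in TMD8 (14.9%). The genes of the G1/S transition and of DNA replication, 32 tested of 33, were counted in the same way, beside the same shares of all genes. At 24 h NGI-1 lowered 30 of them in TMD8 (median -0.56) and 18 in HBL1 (median -0.34), and of the 45 mitosis genes it lowered 14 and 2 (medians -0.21 and -0.05). CDC25A, the phosphatase that activates CDK2, was lower with NGI-1 in TMD8 (-1.15 ± 0.13, adjusted p = 1.2e-08). Acalabrutinib lowered 26 and 28 of the replication genes in TMD8 and HBL1, and copanlisib 24 and 31. Among them MCM6, of the replicative helicase, changed by -0.91 ± 0.11 (adjusted p = 5.9e-08) and CDC6, which loads that helicase, by -1.02 ± 0.12 (adjusted p = 3.5e-08) under copanlisib in HBL1. At 6 h of copanlisib in TMD8, where 30 of the 45 mitosis genes were higher, 1 replication gene was higher and 3 were lower (median -0.07). The 5 genes named from these lists were picked after their values were seen, and no test compared the lists with each other.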

How the data were processed

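The authors deposited counts of reads per gene, which were taken as they were for 48 libraries in 24 groups. HTSeq on hg19 is named in the submitters' processing notes, with the aligner and all versions not given in the sources used here. Of 25066 genes, 3449 had no identifier, held 0.81% of the reads and were kept. Replicates differed beyond counting noise, with a chi-square per degree of freedom of 2.53 to 8.49.

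Scaling was by TMM (edgeR 4.0.16 under R 4.3.3), and filterByExpr kept 13881 genes. A single mean per group was fitted, and edgeR's quasi-likelihood test was run with 24 residual degrees of freedom, a common dispersion of 0.00539 and a coefficient of variation of 7.3%. In each of 55 comparisons p-values were adjusted by the Benjamini-Hochberg method over all genes, at a threshold of 0.05. Log2 CPM used a prior count of 2. The test was tried on simulated data. Alternatives were other size factors, no filter, a stricter filter (1 CPM or more in 2 libraries, with log2 CPM averaging 1 or more), DESeq2 1.42.0, each line alone, a replicate block, and leaving out each library in turn.

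The 45 genes and the other lists were chosen with earlier results of these data known, and 8 comparisons within a treatment over time and the window of 50 bases were added after values were seen. Values per library are given for 14 genes set by role, for the gene most changed in the line with the smaller response, among genes called alike in both lines (CCNA2, CCNB1 and CDC25C), and for the gene with the smallest adjusted p in each difference between lines (PRC1 and CDC25B). NEK2 was picked after its values were seen, as the other gene raised at 24 h.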

Additional observations from a re-analysis of the deposited data

Results flagged for a closer look

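Effects differed between times or between lines in a test of the difference itself. Between the lines at 24 h, the effect of acalabrutinib was higher in TMD8 than in HBL1 for CDC25B by 0.48 on the log2 scale. It was also higher for PRC1 by 0.51 and for ECT2 by 0.51, where 2.23% of all genes were called higher. The effect of copanlisib was higher in TMD8 for CDC25B by 0.50, where 2.19% of all genes were called higher. Each of these differences lost its call when some single libraries were left out. CDC25B rose in TMD8 and was not called in HBL1, whereas PRC1 and ECT2 fell in HBL1 and were not called in TMD8.

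Between times, the effect of copanlisib on the 45 mitosis genes was lower at 24 h than at 3 h for 29 genes in TMD8 and 40 in HBL1 (5.82% and 5.73% of all genes). It was lower than at 6 h for 37 and 39 (3.58% of all genes in each line). For acalabrutinib the counts against 3 h were 5 in TMD8 and 21 in HBL1 (7.88% and 2% of all genes). Those against 6 h were 12 and 11 (3.93% and 1.19%). For NGI-1 the counts were 4 in TMD8 and 1 in HBL1 against 3 h (6.09% and 2.59% of all genes), and 10 and 1 against 6 h (3.75% and 2.47%). The level of the same genes in the vehicle cells rose between these times, and its part in the result was not tested.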

How the results depend on the processing

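Of 232 single-gene calls against the vehicle, between lines and between compounds, 100 were kept whichever library was left out and 195 under every other alternative. In every comparison of a compound with the vehicle, the median of the 45 genes had the same direction under size factors by relative log expression as under TMM. The medians of the other comparisons were not examined in this way. The depth and 2 libraries a group limited the recovery of small changes in simulated counts. These were made for copanlisib at 24 h in HBL1 over 13782 genes, with 50 genes changed at each fold and the same dispersion for all genes. Of 1.25-fold changes 10% were recovered, of 1.5-fold changes 80%, and of 2-fold and of 3-fold changes 100%, with 6 false calls. In the data this comparison called 4227 of 13881 genes, far more than were changed in the simulation, so these rates need not hold there.

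Counts of the 45 genes called that moved by more than 1.5 times were as follows, and the cause was not tested. With size factors by relative log expression the count was 0 for the effect of NGI-1 at 24 h minus 3 h in HBL1 and 0 for copanlisib minus acalabrutinib in TMD8. With no filter on low counts the count was 6 for NGI-1 at 24 h in HBL1, 4 for copanlisib at 3 h in TMD8, 2 for copanlisib at 3 h in HBL1, 0 for the effect of NGI-1 at 24 h minus 6 h in HBL1, 0 for the line difference for copanlisib at 24 h and 0 for NGI-1 minus copanlisib in TMD8. Under a stricter filter on low counts it was 2 for copanlisib minus acalabrutinib in TMD8 and 5 for DMSO at 6 h minus its own 3 h in HBL1. DESeq2 gave 2 for copanlisib minus acalabrutinib in TMD8. Fitting each line alone gave 1 for copanlisib at 3 h in HBL1, 3 for copanlisib at 6 h in HBL1, 0 for the effect of NGI-1 at 24 h minus 3 h in HBL1 and 3 for copanlisib minus acalabrutinib in TMD8. For NGI-1 at 24 h in HBL1 with no filter, 4 genes were higher and 2 lower, so the larger side turned from lower to higher.

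The main fit held no replicate block. Over 36 pairs of same-numbered libraries of a line and time, the correlation of deviations from group means ran from 0.05 to 0.30 over all genes. Its median was 0.13, and 24 pairs were over 0.1. In 240 other pairs, of a different line or time, the median was 0.02 and 29 were over 0.1. Over the 45 genes the median was 0.35, against 0.1 in the other pairs. Within each line and time the gap between the replicates of the median gene had 1 sign in all 4 groups. Same-numbered libraries of a line and time thus shared a deviation that the main fit did not take up. With the replicate number as a block, the count was 6 for NGI-1 at 24 h in HBL1, 4 for copanlisib at 3 h in TMD8, 2 for copanlisib at 3 h in HBL1, 3 for the effect of NGI-1 at 24 h minus 3 h in HBL1, 8 for the effect of acalabrutinib at 24 h minus 3 h in TMD8, 19 for the effect of acalabrutinib at 24 h minus 6 h in HBL1, 7 for the line difference for acalabrutinib at 24 h, 2 for the line difference for copanlisib at 24 h, 27 for NGI-1 minus acalabrutinib in HBL1, 4 for copanlisib minus acalabrutinib in TMD8 and 5 for DMSO at 6 h minus its own 3 h in HBL1. With a replicate block within each line and time, the count was 17 for NGI-1 at 6 h in TMD8, 28 for NGI-1 at 24 h in TMD8, 2 for NGI-1 at 6 h in HBL1, 15 for NGI-1 at 24 h in HBL1, 27 for acalabrutinib at 6 h in TMD8, 21 for acalabrutinib at 24 h in TMD8, 3 for acalabrutinib at 3 h in HBL1, 7 for acalabrutinib at 6 h in HBL1, 20 for copanlisib at 3 h in TMD8, 40 for copanlisib at 24 h in TMD8, 16 for copanlisib at 3 h in HBL1, 23 for copanlisib at 6 h in HBL1, 15 for the effect of NGI-1 at 24 h minus 3 h in TMD8, 8 for the effect of NGI-1 at 24 h minus 3 h in HBL1, 19 for the effect of acalabrutinib at 24 h minus 3 h in TMD8, 35 for the effect of acalabrutinib at 24 h minus 3 h in HBL1, 44 for the effect of copanlisib at 24 h minus 3 h in TMD8, 38 for the effect of NGI-1 at 24 h minus 6 h in TMD8, 6 for the effect of NGI-1 at 24 h minus 6 h in HBL1, 32 for the effect of acalabrutinib at 24 h minus 6 h in TMD8, 38 for the effect of acalabrutinib at 24 h minus 6 h in HBL1, 2 for the line difference for NGI-1 at 6 h, 7 for the line difference for NGI-1 at 24 h, 2 for the line difference for acalabrutinib at 6 h, 19 for the line difference for acalabrutinib at 24 h, 1 for the line difference for copanlisib at 6 h, 16 for the line difference for copanlisib at 24 h, 2 for NGI-1 minus acalabrutinib in TMD8, 38 for NGI-1 minus acalabrutinib in HBL1, 10 for NGI-1 minus copanlisib in TMD8, 19 for copanlisib minus acalabrutinib in TMD8, 5 for copanlisib minus acalabrutinib in HBL1, 30 for NGI-1 at 24 h minus its own 3 h in TMD8, 31 for acalabrutinib at 24 h minus its own 3 h in TMD8, 28 for DMSO at 6 h minus its own 3 h in TMD8 and 11 for DMSO at 6 h minus its own 3 h in HBL1. Of the calls in that fit for NGI-1 minus copanlisib in TMD8, 9 were higher and 1 lower. Of the calls in that fit for DMSO at 6 h minus its own 3 h in HBL1, 6 were higher and 5 lower.

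Leaving out each library in turn, in fits that kept the dispersion of all libraries and so assume a lone library to vary like the others, gave 0 to 3 for NGI-1 at 6 h in TMD8, 8 to 12 for NGI-1 at 24 h in TMD8, 0 to 1 for NGI-1 at 6 h in HBL1, 0 to 3 for NGI-1 at 24 h in HBL1, 0 to 3 for acalabrutinib at 6 h in TMD8, 6 to 10 for acalabrutinib at 24 h in TMD8, 0 to 2 for acalabrutinib at 6 h in HBL1, 0 to 1 for copanlisib at 3 h in TMD8 and 6 to 26 for copanlisib at 6 h in TMD8. It gave 0 to 10 for copanlisib at 6 h in HBL1, 1 to 5 for the effect of NGI-1 at 24 h minus 3 h in TMD8, 0 to 2 for the effect of NGI-1 at 24 h minus 3 h in HBL1, 1 to 7 for the effect of acalabrutinib at 24 h minus 3 h in TMD8, 6 to 19 for the effect of acalabrutinib at 24 h minus 3 h in HBL1, 14 to 35 for the effect of copanlisib at 24 h minus 3 h in TMD8, 23 to 37 for the effect of copanlisib at 24 h minus 3 h in HBL1, 2 to 10 for the effect of NGI-1 at 24 h minus 6 h in TMD8 and 0 to 2 for the effect of NGI-1 at 24 h minus 6 h in HBL1. The range was 2 to 10 for the effect of acalabrutinib at 24 h minus 6 h in TMD8, 5 to 17 for the effect of acalabrutinib at 24 h minus 6 h in HBL1, 23 to 40 for the effect of copanlisib at 24 h minus 6 h in TMD8, 18 to 37 for the effect of copanlisib at 24 h minus 6 h in HBL1, 0 to 3 for the line difference for acalabrutinib at 24 h, 0 to 2 for the line difference for copanlisib at 24 h, 0 to 1 for NGI-1 minus acalabrutinib in TMD8, 3 to 10 for NGI-1 minus acalabrutinib in HBL1 and 0 throughout for NGI-1 minus copanlisib in TMD8. The range was 20 to 31 for NGI-1 minus copanlisib in HBL1, 0 throughout for copanlisib minus acalabrutinib in TMD8, 12 to 16 for NGI-1 at 24 h minus its own 3 h in TMD8, 12 to 15 for acalabrutinib at 24 h minus its own 3 h in TMD8, 13 to 23 for copanlisib at 24 h minus its own 3 h in TMD8, 22 to 30 for copanlisib at 24 h minus its own 3 h in HBL1, 2 to 12 for DMSO at 6 h minus its own 3 h in TMD8 and 1 to 4 for DMSO at 6 h minus its own 3 h in HBL1.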
